A study of Mus musculus with 47 samples.

Results

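The Apoa1-Apoc3-Apoa4-Apoa5 cluster is a run of 4 neighbouring apolipoprotein genes on mouse chromosome 9. It was followed in ChIP-seq peak lists as the 60-kb mm9 window chr9:46025000-46085000, in which Apoa1 lies at about chr9:46036700-46038600. Every peak that overlapped the window in any list was taken, which gave 204 of the 713214 peaks in 46 lists. Of these, 105 were Myc peaks, 40 were RNA polymerase II (RNAPII) peaks, 34 were H3K4me3 peaks and 25 were H3K27ac peaks. All samples were liver tissue of FVB mice. Switched-off tumours carried tet-Myc and LAPtTA, and their tet-Myc had been turned off by doxycycline food for 16 h (3 libraries per antibody). Myc-on tumours had the same genotype with tet-Myc expressed (6 Myc libraries and 4 for each other antibody). Control livers (4 per antibody) were 1 liver with tet-Myc not expressed, 1 with LAPtTA and 2 wild-type ones. LAPtTA is a transactivator that drives tet-Myc in the liver, expression began in utero, and the labels name wild-type and V394D tet-Myc without saying which form each tumour carried. An input sample was not analysed here. By genotype the control livers came from more than 1 animal. Otherwise, whether a group's libraries stand for different animals is not stated in the labels, and each p-value therefore reflects library-to-library spread, which may be technical. For H3K4me3 and H3K27ac the list headers give 11 distinct sample numbers, and all 11 are the same in both marks. These marks may therefore come from the same samples. The tissues were bulk, so a mark lost from all cells and a smaller share of cells with the mark cannot be told apart.

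Apolipoproteins are the protein part of the particles that carry lipid in blood, and the liver is a main source of them. Apoa1 is the chief protein of high-density lipoprotein. Apoc3 slows the clearance of triglyceride-rich particles by holding back lipoprotein lipase, whereas Apoa5 promotes the action of that lipase. Apoa4 is carried on triglyceride-rich and high-density particles and is known mainly from the gut, though rodent liver makes it too. RNAPII marks transcribed genes, H3K4me3 lies mainly at active promoters, and H3K27ac lies at active promoters and enhancers. In the RefSeq gene table (GRCm38.p6) the order along the chromosome was Sik3, a long noncoding RNA, a pseudogene, Apoa1, Apoc3, Apoa4, Apoa5, Zpr1 and Bud13. mm9 positions of genes other than Apoa1 were not used here, so stretches are given by distance from the start of Apoa1, with positive distances on the side of Apoc3, Apoa4, Apoa5 and Zpr1.

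The 250 bases upstream of the members' starts are printed because Myc binds the E-box CACGTG and Myc peaks lay over the window. They are from RefSeq (GRCm38.p6, + strand), in which 3 of the 4 members were matched. Searched on both strands were the E-box, the TATA string TATAAA, the HNF4A string CAAAGTCCA, the C/EBP string TTGCNNAA and the FOXA string TGTTTAC, and matches are in capitals.
Apoa1: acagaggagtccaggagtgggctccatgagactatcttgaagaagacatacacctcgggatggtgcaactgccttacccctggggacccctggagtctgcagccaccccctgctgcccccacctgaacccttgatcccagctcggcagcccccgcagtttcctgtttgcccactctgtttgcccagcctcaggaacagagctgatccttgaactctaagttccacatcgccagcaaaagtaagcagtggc
Apoa4: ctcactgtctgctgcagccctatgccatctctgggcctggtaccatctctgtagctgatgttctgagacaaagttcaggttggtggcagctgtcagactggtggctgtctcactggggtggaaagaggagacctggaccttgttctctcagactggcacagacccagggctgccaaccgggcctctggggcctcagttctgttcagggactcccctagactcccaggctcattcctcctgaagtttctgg
Apoa5: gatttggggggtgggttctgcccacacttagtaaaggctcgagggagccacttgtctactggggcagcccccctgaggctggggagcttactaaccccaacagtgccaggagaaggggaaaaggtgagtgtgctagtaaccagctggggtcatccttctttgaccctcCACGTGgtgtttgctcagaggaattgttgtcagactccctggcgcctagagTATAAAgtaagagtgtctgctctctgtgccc
Apoa5 has 2 listed starts, and the bases before the first are printed. They held 1 E-box, at 82 to 77 bases before that start, and 1 TATA string, at 31 to 26 bases before it. Counted from the second start, the same strings lay at 107 to 102 and at 56 to 51 bases before it. Apoa1 and Apoa4 held none of the 5 strings in these windows. Of 32851 promoters of the same length, 6.02% held CACGTG, 12.4% held TATAAA, 9.56% held TTGCNNAA, 3.17% held TGTTTAC and 0.384% held CAAAGTCCA. A match is a run of letters and not a shown binding site, and the mm9 peaks were not placed on these GRCm38.p6 sequences.

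Across the window, switched-off tumours had no Myc peak, Myc-on tumours had Myc peaks at 7 shared points, and both kinds of tumour had less of the window under RNAPII peaks than control liver had. H3K4me3 peaks covered on average 31.6% of it in switched-off tumours, 14.9% in Myc-on tumours and 38.9% in control livers, while H3K27ac peaks covered at least 82.9% in every library. Apoa1, itself a liver gene, was under RNAPII, H3K4me3 and H3K27ac peaks in all 11 libraries of each of these antibodies, over 100% of its interval; other liver markers were not analysed here.

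RNAPII peaks covered 36.7%, 54.6% and 46.5% of the window in the switched-off tumours, 45.0%, 47.0%, 42.6% and 29.3% in the Myc-on tumours, and 68.0%, 66.1%, 71.6% and 70.3% in the control livers. All 7 tumour libraries were below all 4 control livers, and the tumour groups overlapped with each other. H3K4me3 peaks covered 25.1%, 43.1% and 26.5% in switched-off tumours, 13.8%, 15.5%, 9.10% and 21.4% in Myc-on tumours, and 28.4%, 26.7%, 46.2% and 54.4% in control livers. The Myc-on tumours were the lowest 4 of the 11 libraries, and switched-off tumours overlapped control liver. H3K27ac peaks covered 89.8%, 97.9% and 83.7% in switched-off tumours, 90.3%, 84.6%, 82.9% and 88.8% in Myc-on tumours, and 97.2%, 98.6%, 97.5% and 100% in control livers. Myc peaks covered 0% in each switched-off tumour, 8.52%, 6.57%, 9.82%, 23.3%, 16.8% and 47.9% in Myc-on tumours, and 2.14%, 1.07%, 1.76% and 16.6% in control livers. The sixth Myc-on tumour and the fourth control liver stood above the rest of their groups for Myc. The median Myc peak was wider in Myc-on tumours and the fourth control liver than in the other libraries, as given below.

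**Figure D1:**
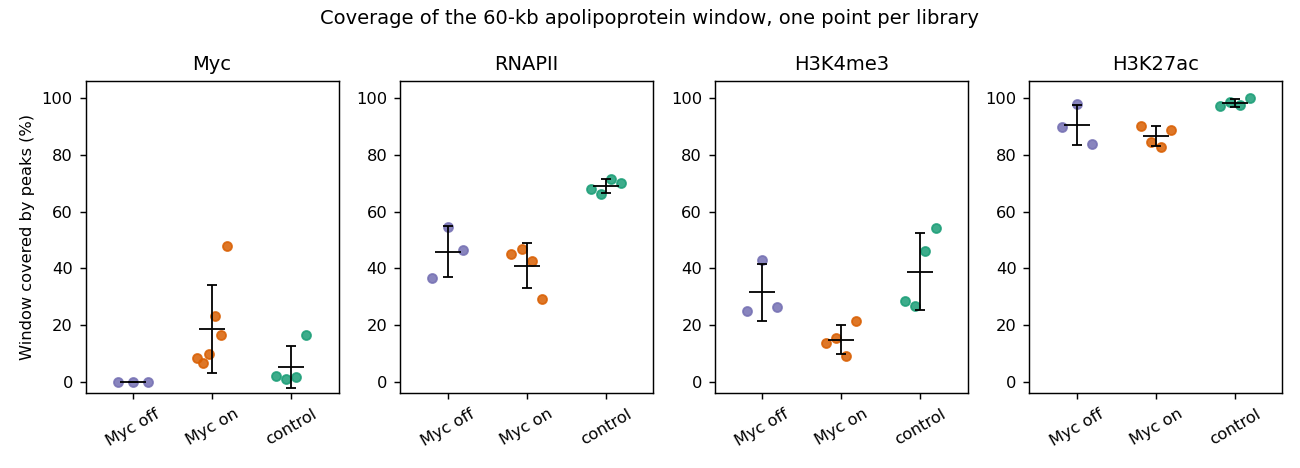
Percent of the 60-kb apolipoprotein window under peaks, by antibody; points are libraries, bars are means and SD, and groups run from switched-off tumours through Myc-on tumours to control liver. All tumour libraries lie at or below 54.6% for RNAPII, and all control livers lie at or above 66.1%.

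Exact two-sided permutation of the library labels gave p = 0.0286 for RNAPII in Myc-on tumours against control liver (a difference of -28.0 percentage points), in switched-off tumours against control liver (-23.1 points), and for H3K4me3 in Myc-on tumours against control liver (-24.0 points). The same p was found for H3K4me3 in switched-off against Myc-on tumours (16.6 points) and for H3K27ac in Myc-on tumours against control liver (-11.6 points). It is the smallest p that these group sizes allow, and adjusted over the 12 contrasts it was 0.0686, so none of the 12 passed 0.05; 5 had an unadjusted exact p under 0.05. For Myc, the window differences were 13.4 points in Myc-on tumours against control liver (exact p = 0.148) and -18.8 points in switched-off against Myc-on tumours (exact p = 0.0595).

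The window was then set among all 60-kb tiles of the genome laid from it, with the percent covered fitted by limma and p-values adjusted over all tiles with a peak in at least 2 libraries. The RNAPII coverage of the window fell by 28.0 points (SE 5.94, adjusted p = 0.0137) in Myc-on tumours against control liver. This was 1 of the 9.95% of 12382 tiles called, and 7.6% of tiles were called lower. With the 2 wild-type livers as the only controls the difference was -29.97 points and missed the threshold (adjusted p = 0.0654). In switched-off tumours against control liver the RNAPII difference of -23.1 points (SE 6.42) had an adjusted p of 0.0549, with 7.98% of tiles called. H3K4me3 of the window fell by 24.0 points (SE 6.49, adjusted p = 0.0363) in Myc-on tumours against control liver, the 12th lowest difference of 13017 tiles, of which 13% were called and 6.33% were called lower. The call ended when any 1 of the 4 Myc-on tumours or control liver 3 or 4 was left out (adjusted p up to 0.0914), and with peaks at or above the median score alone (-11.8 points, adjusted p = 0.458). That cut was 1 score for all H3K4me3 libraries, 12027.5. In control livers 1 and 2 the highest window scores were 12011 and 9193, so both livers fell to 0%. Those peaks outranked 74.1% and 79.4% of their own lists. The top window peaks of control livers 3 and 4 outranked 64.2% and 68.7% of theirs. For Myc-on tumours, the other group of this contrast, the values were 83.0%, 75.1%, 89.4% and 97.8%, and for switched-off tumours they were 60.7% to 68.0%. The H3K4me3 difference between switched-off and Myc-on tumours, 16.6 points (SE 7.01), had an adjusted p of 0.0984, with 29.4% of tiles called. H3K27ac in Myc-on tumours against control liver (-11.6 points, SE 3.99) had an adjusted p of 0.0805, with 14.1% of tiles called. For Myc, the difference was 13.4 points (SE 6.62, adjusted p = 0.0812) in Myc-on tumours against control liver, with 65.3% of tiles called. It passed without Myc-on tumour 1 (adjusted p = 0.0456) or 2 (adjusted p = 0.0443), and the share of tiles called was 29.2% without control liver 1, 31.9% without control liver 2 and 0% without control liver 3. In switched-off against Myc-on tumours Myc fell by 18.8 points (adjusted p = 0.0381), with 58.7% of tiles called, and the call was lost without any 1 of the 3 switched-off tumours or Myc-on tumour 4 (adjusted p up to 0.0938). Without any 1 switched-off tumour, 0 tiles of the genome were called in this contrast.

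**Figure D2:**
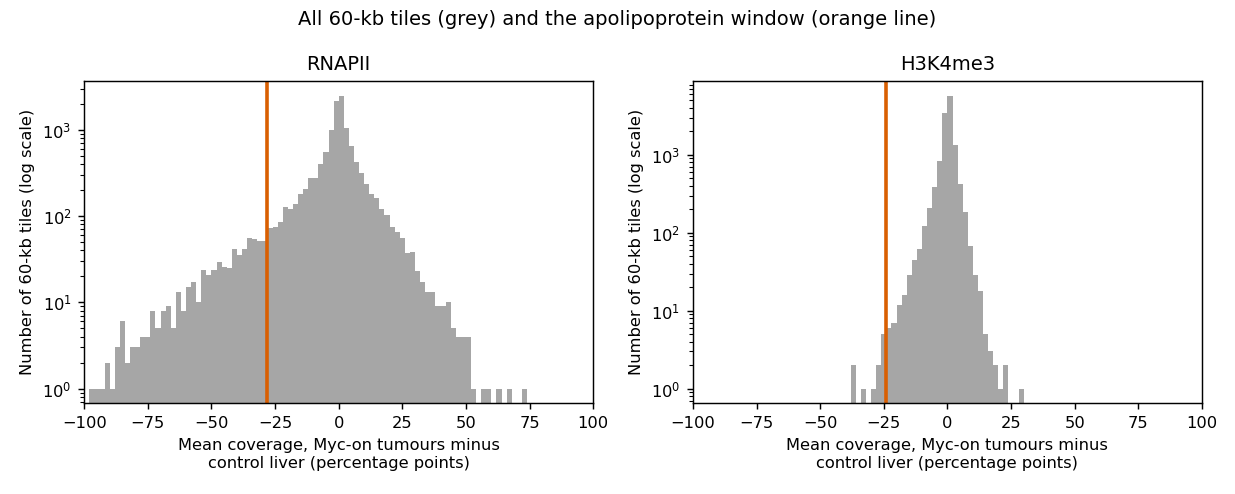
Number of 60-kb tiles (log scale) by the difference in mean coverage, Myc-on tumours minus control liver, in percentage points, for RNAPII and H3K4me3; the orange line is the apolipoprotein window. The window lies at -28.0 points for RNAPII, inside a broad lower tail, and at -24.0 points for H3K4me3, near the lower end of all tiles.

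Myc-on tumours shared Myc binding at 7 points of the window that no switched-off tumour had. A peak was present in all 6 Myc-on tumours and in none of the 3 switched-off tumours at 0.88 to 1.78 kb (inside Apoa1), 3.8 to 4.2 kb, 6.7 to 7.3 kb, 13.2 to 13.6 kb, 32.5 to 32.9 kb, 39.8 to 40.1 kb and 44.2 to 44.8 kb. Control livers also had Myc peaks at the point inside Apoa1, in all 4 libraries, over 10.6%, 26.3%, 24.0% and 100% of its 900 bases. At 3.8 to 4.2 kb and at 13.2 to 13.6 kb, no control liver had a Myc peak. At 32.5 to 32.9 kb and at 39.8 to 40.1 kb only the fourth control liver had a Myc peak. Bases under Myc peaks in all 6 Myc-on tumours and in no switched-off tumour made up 10.5% of the window's Myc-covered bases, against 11.9% over the genome.

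Of the Apoa1 interval, Myc peaks covered 0% in each switched-off tumour, 58.6%, 47.4%, 73.4%, 80.7%, 85.5% and 100% in Myc-on tumours, and 6%, 21.7%, 16.3% and 100% in control livers. Myc-on tumours averaged 74.3 ± 19.0% and control livers 36.0 ± 43.2% (SD, n = 6 and 4). The fourth control liver reached the level of the highest tumour, and the other 3 control livers were below every Myc-on tumour.

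Merging the peaks of all Myc libraries gave 18 regions in the window, of which 12 were present in at least 2 libraries and were tested. Coverage was higher in Myc-on tumours than in control liver at 6 of these 12 by limma with adjusted p below 0.05, where 47.5% of 39145 Myc regions were called in either direction and 47.2% were called higher. Switched-off tumours were lower than Myc-on tumours at 6 of the 12, where 44% of all regions were called. The window's 6 of 12 is near the background in both contrasts. The called regions chr9:46029183-46030156, chr9:46032085-46033102 and chr9:46048460-46050800 had 0% in all control livers and switched-off tumours. Myc-on peaks alone set their bounds and brought them past the filter of 2 libraries. The sign of both differences was thereby fixed at these regions, and their calls are no separate support. With the 2 wild-type livers as the only controls, 1 of the 6 higher regions was called, the one described next (adjusted p = 0.00928). The region chr9:46043053-46044445 on the Apoc3 side, 6.4 to 7.7 kb from Apoa1, had 0% in all 3 switched-off tumours, 52.3%, 49.0%, 55.1%, 66.6%, 69.6% and 100% in Myc-on tumours, and 0%, 0%, 0% and 22.9% in control livers. Its coverage was higher by 59.7 points (SE 11.9, adjusted p = 5.24e-06) in Myc-on tumours than in control liver and fell by 65.4 points (SE 13.0, adjusted p = 6.14e-06) in switched-off against Myc-on tumours. At the region that holds Apoa1, chr9:46035930-46041922, Myc-on tumours averaged 51.9% and control livers 18.3%, a difference of 33.6 points (SE 12.7, adjusted p = 0.0200), with 0% in switched-off tumours. Without control liver 1 that difference was 28.4 points (adjusted p = 0.113), and it also missed the threshold without control liver 2 or 3 or without Myc-on tumour 6. Between switched-off tumours and control liver, 0 of 12 regions and 0.0664% of all regions were called by limma, and none of the 12 had an unadjusted p below 0.05. Deviations of same-numbered Myc-on tumours and control livers were correlated (0.165 to 0.375 over 4 pairs). Differently numbered libraries were not compared, so a pairing by library number is not shown. With library number as a block, the adjusted p of the tile difference between Myc-on tumours and control liver was 0.000742 by limma for 6.66 points. Myc-on tumours 5 and 6 have no control liver of the same number, so the blocked difference rests on Myc-on tumours 1 to 4. Without the block, and with all 6 Myc-on tumours, the adjusted p was 0.0812 for 13.4 points. The 2 fits therefore differ in the tumours compared as well as in the block. Myc-on tumours 5 and 6 likewise do not enter the blocked differences of the regions. Under the block, 2 of the 6 regions that were higher missed the threshold. They were the ones at -4.6 to -3.6 kb (adjusted p = 0.151) and 11.8 to 14.1 kb (adjusted p = 0.0520).

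On the Apoa5 and Zpr1 side, both Myc-on tumours and control livers carried Myc peaks. In the 3268 bases of chr9:46076717-46079984, Myc peaks covered 0% in each switched-off tumour, 2.08%, 1.16%, 6.09%, 8.42%, 1.59% and 10.0% in Myc-on tumours, and 27.7%, 7.10%, 13.2% and 91.6% in control livers. Each Myc-on tumour had 1 peak there, which reached in from the Apoa1 side. Control livers 1 to 3 had peaks of at most 454 bases there, and control liver 4 had 2 long ones, of 2581 and 2504 bases, which also covered the shared Myc-on points at 39.8 to 40.1 kb and 44.2 to 44.8 kb. Control liver 3 had a peak inside the second of these points. The groups overlapped in this stretch, and it was picked for its H3K4me3, so no test was made on Myc. For the 2 Myc regions that span it, chr9:46075038-46079155 and chr9:46079174-46082213, the difference between Myc-on tumours and control liver was -0.67 points (adjusted p = 0.975) and 1.32 points (adjusted p = 0.935) by limma.

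Switched-off tumours had 98, 331 and 239 Myc peaks in their whole lists, and none of these was in the window. In Myc-on tumours the window took between 0.0305% and 0.0467% of 19269 to 55763 peaks. Control livers had 9, 4, 12 and 7 peaks in the window, of 1953, 2816, 1002 and 8499 in all, or 0.461%, 0.142%, 1.20% and 0.0824%. List length moved with the groups for Myc, and its part in the differences was not tested: lists cut to the shortest one left no Myc peak in the window in any group. Peak width differed too. The median Myc peak was 77 to 90 bases long in switched-off tumours and 428 to 762 in Myc-on tumours. In control livers it was 90, 132, 78 and 444 bases. Percent covered depends on peak width, and the part of width in the coverage differences was not tested. By the authors' score, the peak over Apoa1 in control liver 4 was the 99th of 8499.

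**Figure D3:**
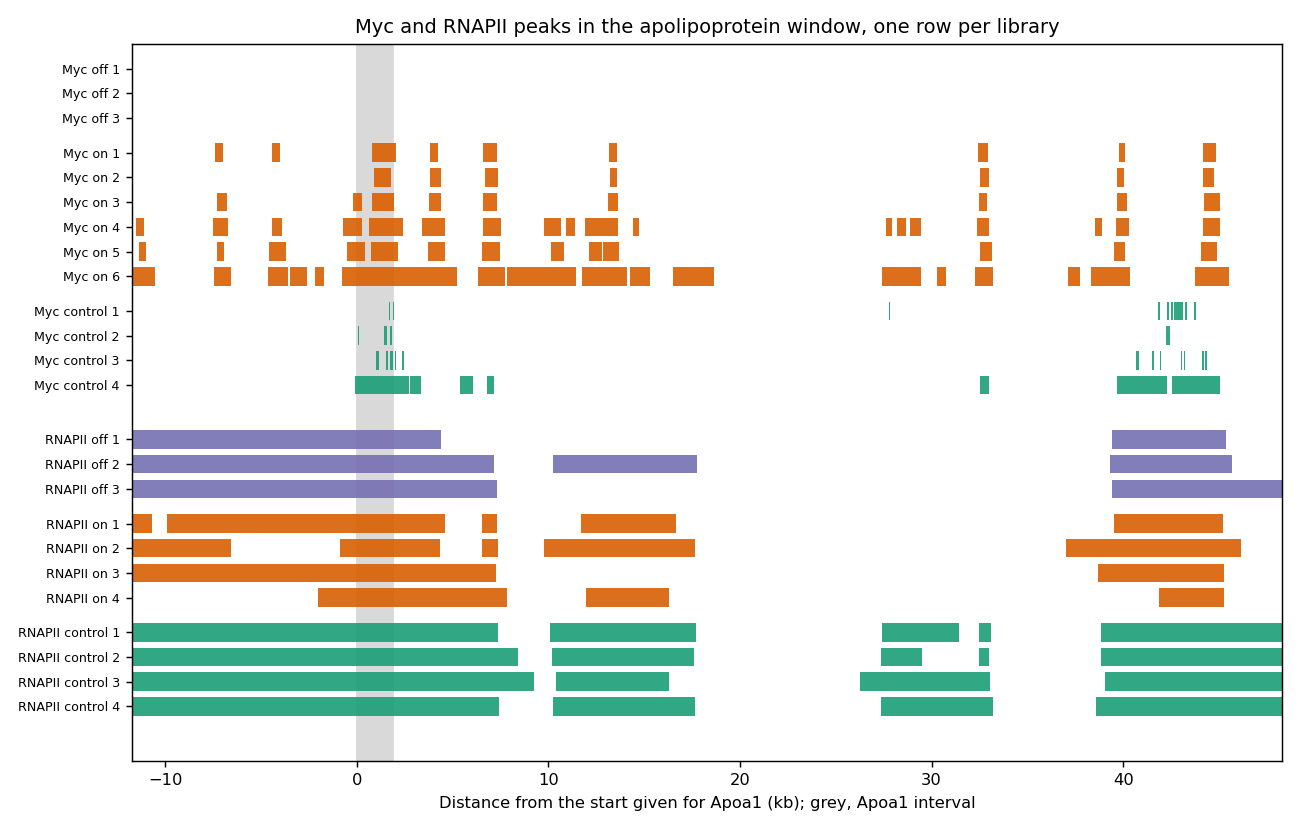
Peaks of each Myc and RNAPII library along the window, by distance in kb from the start of Apoa1 (grey band, Apoa1); rows run from switched-off tumours (purple) through Myc-on tumours (orange) to control liver (green). No switched-off tumour has a Myc peak, and at 26.2 to 33.2 kb only control livers have RNAPII peaks.

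RNAPII peaks were absent from 1 region of the window in all tumours and covered less of another in Myc-on tumours. RNAPII peaks merged into 4 regions, all present in at least 2 libraries, and coverage was lower in Myc-on tumours than in control liver at 2 of the 4 by limma, where 13% of 16931 RNAPII regions were called and 9.1% were called lower. The median difference over the 4 regions was -44.4 points, against -0.40 points over all regions. The region chr9:46062941-46069923, 26.2 to 33.2 kb from the start of Apoa1, had no RNAPII peak in any of the 3 switched-off tumours or the 4 Myc-on tumours. In control livers its coverage was 67.2%, 38.0%, 97.3% and 84.4%. The difference was -71.7 points (SE 15.6, adjusted p = 0.00303) for Myc-on tumours and -71.7 points (SE 16.8, adjusted p = 0.00894) for switched-off tumours, both against control liver by limma. Control liver peaks alone set the bounds of this region and brought it past the filter of 2 libraries. The sign of the difference was thereby fixed, and these p-values are no separate support. This region was the 1 of 4 called in switched-off tumours against control liver, where 8.38% of all regions were called.

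H3K27ac peaks still covered that region in every tumour. The coverage was 100%, 100% and 93.3% in switched-off tumours, 100%, 100%, 84.2% and 100.0% in Myc-on tumours, and 100% in each control liver. H3K4me3 peaks were found there in 2 of 4 control livers, with 45.2% and 55.1% covered, and in no tumour. Myc peaks at 32.5 to 32.9 kb, present in all 6 Myc-on tumours, lay inside the same region. The 523 bases at 32.5 to 33.0 kb were under RNAPII peaks in all 4 control livers and in no tumour library, and Myc peaks covered 0% of them in switched-off tumours, 74.0% to 100% in Myc-on tumours, and 0%, 0%, 0% and 90.6% in control livers.

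The RNAPII region that holds Apoa1, chr9:46000731-46045949, reaches well beyond the window on the Sik3 side. Its coverage was 40.4%, 68.7% and 62.6% in switched-off tumours, 42.6%, 49.0%, 47.4% and 21.8% in Myc-on tumours, and 94.0%, 96.1%, 94.1% and 91.6% in control livers. Coverage fell by 53.7 points (SE 10.9, adjusted p = 0.00171) in Myc-on tumours against control liver, and the difference for switched-off tumours was -36.7 points (SE 11.7, adjusted p = 0.0515). Apoa1 stayed covered in every library, so the uncovered bases lay outside it. Much of this region lies outside the window, and no base of its part inside the window was under RNAPII peaks in all 4 control livers and in no Myc-on tumour. The other regions were not called. The region chr9:46046494-46054460, 9.8 to 17.8 kb from Apoa1, was covered over 0%, 94.6% and 0% in switched-off tumours, 62.1%, 98.8%, 0% and 54.3% in Myc-on tumours, and 95.1%, 93.0%, 74.4% and 93.1% in control livers (adjusted p = 0.217 for Myc-on tumours against control liver). The region chr9:46073700-46096695 averaged 52.3 ± 13.2% in switched-off tumours, 42.1 ± 12.8% in Myc-on tumours and 73.9 ± 12.9% in control livers (SD, n = 3, 4 and 4), with an adjusted p of 0.0948 for Myc-on tumours against control liver. Between switched-off and Myc-on tumours 0 of the 4 regions and 3.52% of all regions were called, and none of the 4 had an unadjusted p below 0.05.

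Bases under RNAPII peaks in all 4 control livers and in no Myc-on tumour came to 4782, which was 10.1% of the window's covered bases, against 4.2% over the genome, and bases the other way came to 0, against 0.981%. They included 2173 bases at 46.1 to 48.3 kb that 1 of 3 switched-off tumours also had under RNAPII. H3K27ac peaks there covered 0%, 42.8% and 31.5% in switched-off tumours, 10.1%, 0%, 0% and 0% in Myc-on tumours, and 64.9%, 100%, 100% and 100% in control livers.

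RNAPII lists held 11916 to 14834 peaks in switched-off tumours, 12708 to 17868 in Myc-on tumours and 15152 to 20931 in control livers, so both tumour groups had fewer peaks on average. The lists covered 69.9 to 146 Mb in switched-off tumours, 40.9 to 120 Mb in Myc-on tumours and 80.3 to 124 Mb in control livers. With every RNAPII list cut to the number of peaks in the shortest, the difference of the window was -28.2 points in Myc-on tumours and -22.6 points in switched-off tumours, both against control liver. RNAPII lists held no score, so this cut kept the widest peaks. The longest window peak of each library was wider than 86.6% to 99.0% of the peaks in its list. The cut could therefore remove little from the window, and the part of list length was not tested.

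H3K4me3 peaks stayed over Apoa1 and near the far end of the window in every library, and the narrower blocks within the peaks were lower at 2 stretches between them in Myc-on tumours than in control liver. In the deposited lists each broad H3K4me3 peak holds 1 or more narrower blocks, and the blocks were used to place the differences; this choice was made after the data were seen. Blocks merged into 7 stretches present in at least 2 libraries. Coverage was lower in Myc-on tumours than in control liver at 2 of the 7 and higher at 0, where 25.5% of 21930 block stretches were called by limma, 6.73% lower and 18.7% higher. No Myc-on tumour had a block at either of these 2 stretches, so the sign of both calls was fixed. The median difference over the 7 was -37.9 points, against 6.72 points over all stretches.

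The stretch chr9:46076607-46080428, 39.9 to 43.7 kb from Apoa1 on the side of Apoa5 and Zpr1, showed the 8th lowest difference of 21930. Blocks covered 0%, 54.7% and 54.2% of it in switched-off tumours, 0% in each of the 4 Myc-on tumours, and 92.9%, 86.0%, 94.4% and 97.8% in control livers. Whole H3K4me3 peaks covered 100% of it in each switched-off tumour, 3.01%, 98.8%, 2.09% and 4.37% in Myc-on tumours, and 100% in each control liver, so 1 Myc-on tumour kept a peak without a block. For blocks, the 3 groups did not overlap except that 1 switched-off tumour was at 0%, as the Myc-on tumours were. Coverage fell by 92.8 points (SE 10.8, adjusted p = 9.33e-05) in Myc-on tumours against control liver, and it fell by 56.5 points (SE 11.7, adjusted p = 0.000829) in switched-off tumours against control liver. Blocks of control livers and switched-off tumours alone set the bounds of this stretch and brought it past the filter. The sign of each difference from Myc-on tumours was thereby fixed, and the p-values and rank of those differences are no separate support. Switched-off tumours were 36.3 points (SE 11.7, adjusted p = 0.0157) above Myc-on tumours; without switched-off tumour 2 this was 27.1 points (adjusted p = 0.0896), and without switched-off tumour 3 it was 27.3 points (adjusted p = 0.0907). Over all stretches of the genome the median of this difference was 29.75 points, so a rise of this size was common.

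The stretch chr9:46039544-46044040 begins 2.8 kb from the start of Apoa1, on the Apoc3 side, and ends at 7.3 kb. Blocks covered 11.99%, 65.1% and 21.5% of it in switched-off tumours, 0% in each Myc-on tumour, and 77.1%, 62.5%, 94.6% and 97.0% in control livers. Whole H3K4me3 peaks covered 100% of it in each switched-off tumour, 0%, 6.36%, 3.74% and 100% in Myc-on tumours, and 100% in each control liver. In blocks, all switched-off tumours were above the Myc-on tumours, and the highest of them reached into the control range. Coverage fell by 82.8 points (SE 11.6, adjusted p = 0.000318) in Myc-on tumours and fell by 49.9 points (SE 12.5, adjusted p = 0.00286) in switched-off tumours, both against control liver. Here too no Myc-on block set the bounds, so the sign of each difference from Myc-on tumours was fixed. The p-values of those differences are no separate support. Switched-off tumours were 32.9 points (SE 12.5, adjusted p = 0.0318) above Myc-on tumours, a difference that was 16.7 points without switched-off tumour 2 (adjusted p = 0.181) and had an adjusted p of up to 0.0547 without any 1 Myc-on tumour. The median over all stretches of the genome was 29.75 points here too.

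Over Apoa1 itself the blocks did not shrink. The stretch chr9:46036395-46039483 was covered over 87.2%, 91.7% and 91.7% in switched-off tumours, 78.2%, 76.7%, 77.2% and 81.1% in Myc-on tumours, and 63.7%, 63.7%, 80.9% and 77.1% in control livers. The switched-off tumours were above all 8 other libraries, and Myc-on tumours overlapped control liver. The difference was 18.8 points (SE 4.52, adjusted p = 0.00220) in switched-off tumours against control liver and 6.93 points (SE 4.19, adjusted p = 0.253) in Myc-on tumours against control liver. The stretch at the far end, chr9:46080583-46082404, 43.9 to 45.7 kb from Apoa1, had 95.6 ± 5.04% in switched-off tumours, 85.5 ± 3.48% in Myc-on tumours and 77.1 ± 7.23% in control livers (SD, n = 3, 4 and 4). Switched-off tumours were higher there by 18.5 points (SE 3.99, adjusted p = 0.00109) than control liver. In that contrast 2 of the 7 stretches were higher and 2 lower, where 85.1% of all stretches were called, 82.5% higher and 2.63% lower. Against Myc-on tumours, switched-off tumours were higher at 4 of the 7, where 73.5% of all stretches were called. The median of that difference over the 7 was 10.1 points, against 29.75 points over all stretches. Of the 4 stretches called in switched-off tumours against control liver, the 2 lower ones are those called lower in Myc-on tumours.

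The 3 remaining stretches were covered in some libraries of a group and not in others. At chr9:46048870-46050336, 12.2 to 13.6 kb from Apoa1, blocks were found in 1 of 3 switched-off tumours, 2 of 4 Myc-on tumours and 3 of 4 control livers. At chr9:46065197-46065741, 28.5 to 29.0 kb, and at chr9:46075741-46076564, 39.0 to 39.9 kb, blocks were found in no tumour and in 2 of 4 control livers. Those 2 were the wild-type livers, so both stretches passed the filter of 2 libraries through these livers alone. With all 4 control livers neither stretch was called in Myc-on tumours against control liver (adjusted p = 0.122 and 0.139 by limma). With wild-type livers as the only controls both were called lower besides the 2 above, so that 4 of 7 were called. That setting keeps exactly the livers that had these blocks, so it adds no separate support. Across the whole window too, H3K4me3 peaks covered 46.2% and 54.4% in the wild-type livers and 28.4% and 26.7% in the livers with 1 transgene. Their H3K4me3 lists covered 46.9 and 49.3 Mb, against 38.9 and 35.4 Mb in the livers with 1 transgene.

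Bases under H3K4me3 blocks in all 4 control livers and in no Myc-on tumour came to 6075, which was 36.0% of the window's block-covered bases, against 1.92% over the genome. They lay in 4 runs, 3 of them between 3.97 and 7.13 kb from the start of Apoa1 and the longest, of 3268 bases, at chr9:46076717-46079984. Bases with blocks in all Myc-on tumours and in no control liver came to 0, against 3.44% over the genome. In switched-off tumours the longest run was covered over 0%, 63.9% and 63.4%. Of the 5 merged regions of whole broad H3K4me3 peaks, 2 were lower in Myc-on tumours than in control liver, where 14.8% of 19506 regions were called. These were chr9:46029321-46044388, with 65.0% in switched-off tumours, 28.8% in Myc-on tumours and 72.1% in control livers (adjusted p = 0.0281 for Myc-on tumours against control liver), and chr9:46075204-46084597, with 71.0% in switched-off tumours, 34.1% in Myc-on tumours and 87.2% in control livers (adjusted p = 0.00280). The first call was lost when Myc-on tumour 1, 2 or 3 or control liver 3 or 4 was left out (adjusted p up to 0.0729). Switched-off tumours were 36.9 points (SE 10.2, adjusted p = 0.0242) above Myc-on tumours at the second region, the 1 of 5 called where 28% of all regions were called; the call was lost without switched-off tumour 2 or 3 or Myc-on tumour 1, 3 or 4 (adjusted p up to 0.0779). Between switched-off tumours and control liver 0 of 5 regions were called by limma, where 44.1% of all regions were, and none of the 5 had an unadjusted p below 0.05.

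**Figure D4:**
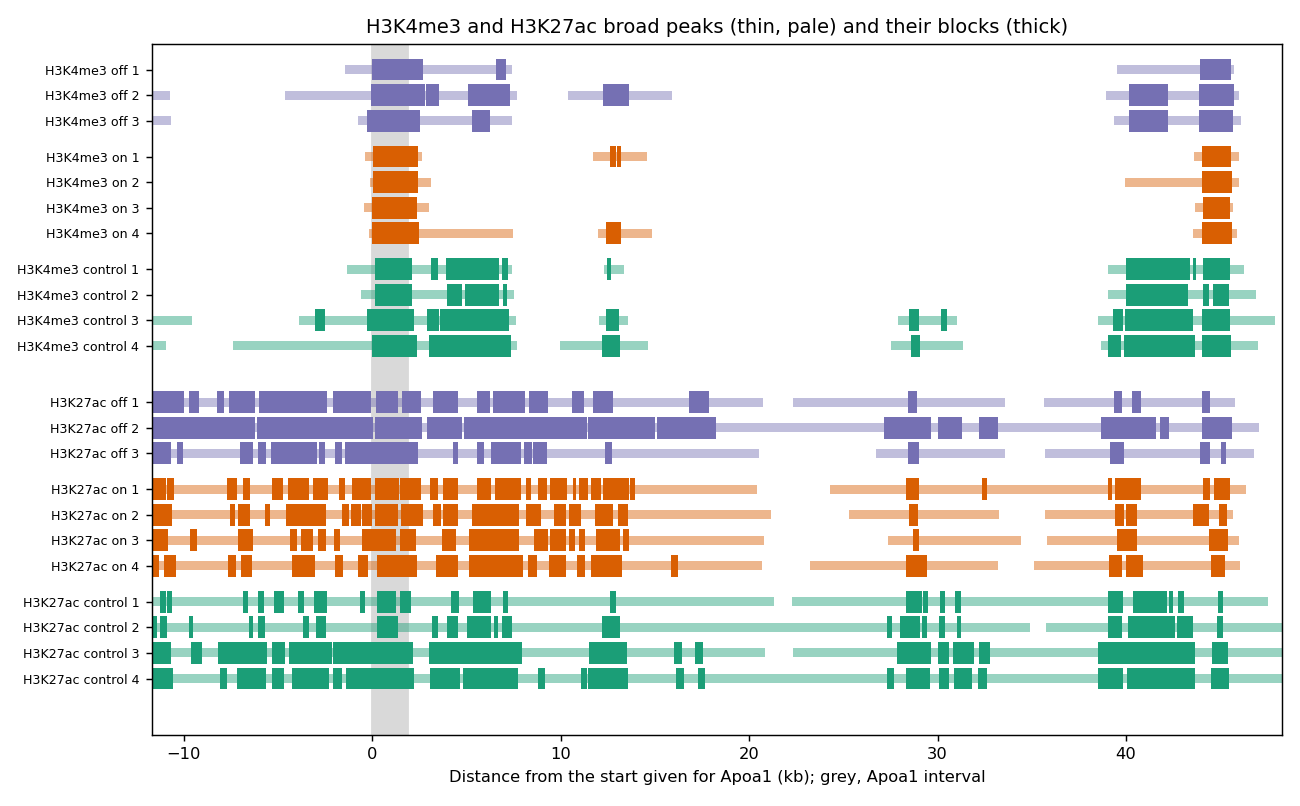
H3K4me3 and H3K27ac broad peaks (thin, pale bars) and their blocks (thick bars) of each library along the window, by distance in kb from the start of Apoa1 (grey band, Apoa1); rows run from switched-off tumours (purple) through Myc-on tumours (orange) to control liver (green). H3K4me3 blocks over Apoa1 and at 43.9 to 45.7 kb are in all 11 libraries, and those at 2.8 to 7.3 kb and 39.9 to 43.7 kb are in no Myc-on tumour.

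**Figure D5:**
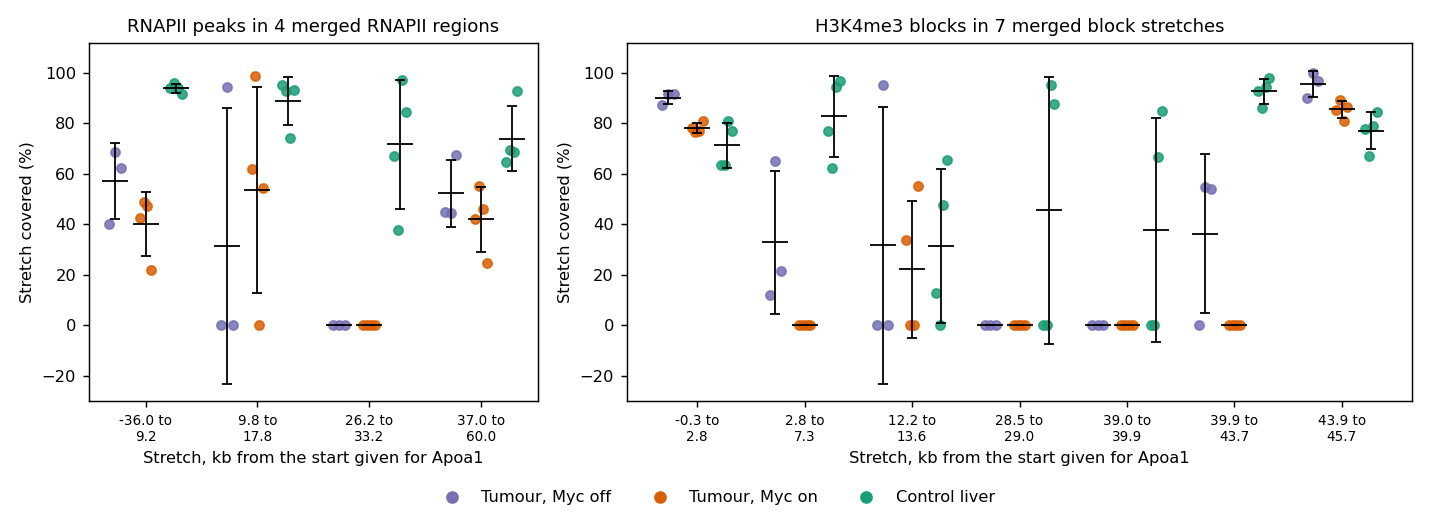
Percent of each RNAPII region (left) and H3K4me3 block stretch (right) covered in each library, with stretches in kb from the start of Apoa1; points are libraries and bars are means and SD. The RNAPII region at 26.2 to 33.2 kb is at 0% in all 7 tumour libraries, and the H3K4me3 stretches at 2.8 to 7.3 kb and 39.9 to 43.7 kb are at 0% in all 4 Myc-on tumours.

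H3K4me3 list length moved with the groups, at 58.0 to 65.5 Mb in switched-off tumours, 38.5 to 46.3 Mb in Myc-on tumours and 35.4 to 49.3 Mb in control livers. The Myc-on tumours and control livers overlapped in it. With every list cut to the number of peaks in the shortest, the H3K4me3 difference of the window was -23.1 points in Myc-on tumours against control liver, 14.9 points in switched-off against Myc-on tumours and -8.25 points in switched-off tumours against control liver. The 2 stretches with lower H3K4me3 blocks were called lower in Myc-on tumours against control liver with each library left out in turn. Neither had a block in any Myc-on tumour, so the sign was fixed in each of these fits and they add no separate support.

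H3K27ac peaks covered most of the window in every library, and 1 of its block stretches was called. H3K27ac lists covered 168 to 214 Mb in switched-off tumours, 104 to 141 Mb in Myc-on tumours and 72.9 to 153 Mb in control livers. With every list cut to the number of peaks in the shortest, the window was covered over 71.0%, 97.9% and 53.7% in switched-off tumours, 90.3%, 71.4%, 71.1% and 88.8% in Myc-on tumours, and 97.2% to 100% in control livers. The differences from control liver were then -24.1 points in switched-off tumours (adjusted exact p = 0.171), against -7.83 points with whole lists, and -17.9 points in Myc-on tumours (adjusted exact p = 0.0686), against -11.6 points with whole lists. Peaks of all libraries merged into a single region, chr9:45989628-46095445, that spans the window, and its coverage was 82.1% in switched-off tumours, 67.0% in Myc-on tumours and 82.3% in control livers, with 0 of the 3 contrasts called by limma (adjusted p from 0.173 to 1; 0 had an unadjusted p below 0.05), where 16.5% of all regions were called in Myc-on tumours against control liver, 12.7% in switched-off against Myc-on tumours and 34.3% in switched-off tumours against control liver. H3K27ac blocks merged into 8 stretches in the window. Of these, 1 was lower in Myc-on tumours than in control liver, where 12.3% of 37452 stretches were called, and 0 were called in switched-off tumours against either group, where 27.5% (against Myc-on tumours) and 50.8% (against control liver) were; at an unadjusted p under 0.05 these counts were 1 and 2. The 1 lower stretch, chr9:46066700-46068654, averaged 21.9% in switched-off tumours, 0% in Myc-on tumours and 55.0% in control livers (adjusted p = 0.0494). With no block in any Myc-on tumour, the sign of this difference was fixed, and its p-value is no separate support. The call was also not stable. It missed the threshold without any 1 of the Myc-on tumours or control liver 3 or 4 (adjusted p up to 0.130).

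The other readouts were compared at the 2 stretches whose H3K4me3 blocks were called lower in Myc-on tumours than in control liver. At 39.9 to 43.7 kb, H3K27ac blocks covered 13.2%, 56.9% and 0% in switched-off tumours, 23.6%, 19.3%, 17.9% and 22.9% in Myc-on tumours, and 63.2%, 86.6%, 97.7% and 93.9% in control livers. All 7 tumour libraries were below the lowest control liver there. At 2.8 to 7.3 kb, H3K27ac blocks averaged 66.8 ± 29.3% in switched-off tumours, 69.6 ± 6.001% in Myc-on tumours and 72.0 ± 27.6% in control livers (SD, n = 3, 4 and 4), and the groups overlapped. RNAPII peaks covered the first of these stretches over 100% in every switched-off tumour and every control liver and over 100%, 100%, 100% and 48.7% in Myc-on tumours. They covered the second over 34.3%, 95.8% and 99.5% in switched-off tumours, 56.5%, 51.2%, 98.2% and 100% in Myc-on tumours, and 100% in each control liver. Myc peaks covered the second over 0% in switched-off tumours, 40.1 ± 18.3% in Myc-on tumours and 8.53 ± 17.1% in control livers (SD, n = 3, 6 and 4). These values describe stretches chosen for their H3K4me3 blocks, and no test was made on them.

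The same 7 Myc points differed in the marks around them in Myc-on tumours. At the points inside Apoa1 and at 44.2 to 44.8 kb, H3K4me3 blocks covered 100% in all 3 switched-off and all 4 Myc-on tumours. In control livers they covered 100% of the point in Apoa1 in each library and 90.9 ± 18.2% (SD, n = 4) of the point at 44.2 to 44.8 kb. At 3.8 to 4.2 kb, H3K4me3 blocks covered 0% in all tumours of both kinds and 84.7%, 66.2%, 100% and 100% in control livers, while H3K27ac blocks covered 100% in all 4 Myc-on tumours. At 32.5 to 32.9 kb no library of any group had an H3K4me3 block, and RNAPII peaks covered 0% in all 7 tumours and 100% in all 4 control livers.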

How the data were processed

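ChIP-seq peak lists of 4 antibodies were used as deposited, 1 list per library, so peaks were called per library. BWA 0.6.2, SAMtools and the mm9 build are named in the submitters' processing notes; no source used here gives the peak caller's version, threshold or control. The Myc, H3K4me3 and H3K27ac lists held the authors' score per peak, whose scale is not given, and it was used only to rank or filter peaks within an antibody. RNAPII lists held positions only. The lists used hold positions and scores and no reads, so depth is unknown, no counting interval can be given, and an uncovered stretch means only that no peak was called. The broad lists of H3K4me3 and H3K27ac also gave blocks inside each peak.

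The percent of the window, of 60-kb tiles and of merged regions (overlap of at least 1 bp, present in at least 2 libraries) covered by a library's peaks was computed with Python 3.11.15. Window values were compared by two-sided exact permutation, adjusted by Benjamini-Hochberg over 12 contrasts. For tiles, regions and blocks, limma 3.58.1 (R 4.3.3) was run (3 groups of an antibody in 1 fit, mean-dependent prior variance, adjusted over all features, threshold 0.05), a step also tested on simulated data. Coordinates count from 1. All regions in at least 2 libraries were counted. Alternatives left out each library, used a stricter score, equal list lengths, a longer or shorter window, wild-type controls alone, a replicate block, merging within 1 kb, tiles with a peak in at least 1 library and, added after the data were seen, blocks alone. The stricter score was 1 median over all libraries of an antibody, so libraries with lower scores lost more peaks under it. The labels give no pairing of libraries. For Myc alone, deviations of same-numbered Myc-on tumours and control livers all correlated positively (0.165 to 0.375 over 4 pairs). Differently numbered libraries were not compared, so this does not show a pairing. The window, its members and the lists of motifs were chosen with earlier results of these data known.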

Additional observations from a re-analysis of the deposited data

Results flagged for a closer look

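In groups of 4 to 6 libraries, 6 values over 35 groups stood apart from the rest of their group (the gap to the nearest library, divided by the range, was past Dixon's limit). Chance flags about 1 in 20 groups of continuous, normal values. That rate does not hold for bounded percentages or for peak counts, where a single library that differs from equal others is always flagged. Control liver 4 stood apart for Myc, with 16.6% of the window covered, against 1.07% to 2.14% in the other 3, and with 100% of the Apoa1 interval covered, against 6% to 21.7%. Its Myc peaks were also wider over the whole list, with a median of 444 bases, against 78 to 132 in the other 3. Control liver 3 had the lowest RNAPII coverage of the region 9.8 to 17.8 kb from Apoa1, at 74.4%. Control liver 4 had the highest RNAPII coverage of the region from 37.0 kb, at 93.1%. For H3K27ac, Myc-on tumour 1 had 2 peaks in the window where the other 3 had 3, and control liver 4 had 1 where the other 3 had 2.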

How the results depend on the processing

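The lists hold no counts, so what depth adds or hides cannot be measured here. Some alternatives could not let an exact test pass. With wild-type controls alone, the smallest exact p for 4 Myc-on tumours against control liver is 0.0667. With the replicate block, the smallest exact p is 0.125 for 4 pairs. No exact test of the window passed the adjusted threshold under any alternative, and 4 differences that had not passed changed sign: RNAPII, switched-off against Myc-on tumours, -5.05 points in the shorter window; H3K4me3, switched-off tumours against control liver, 8.98 points with the stricter score (the same as a tile); H3K27ac, switched-off against Myc-on tumours, -6.17 points at equal list length; and H3K27ac, switched-off tumours against control liver, 7.81 points with blocks alone (the same as a tile).

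Among tiles, with the cause not tested: with wild-type controls alone, RNAPII in Myc-on tumours against control liver was -29.97 points and missed the threshold (adjusted p = 0.0654), while H3K4me3 passed it in switched-off tumours against Myc-on tumours (16.6 points) and against control liver (-18.7 points). The stricter score ended the H3K4me3 call in Myc-on tumours against control liver (-11.8 points). Under its single limit for all libraries, control livers 1 and 2 fell to 0%, which also enters the change of sign to 8.98 points above. Blocks alone brought a call for H3K4me3 in switched-off tumours against control liver (-7.08 points). The Myc call in switched-off against Myc-on tumours (-18.8 points) was lost with wild-type controls alone (adjusted p = 0.0580), with tiles kept from 1 library (adjusted p = 0.0519) and with the stricter score (-13.8 points).

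The number of sites called in the window moved as follows. With wild-type controls alone it was 1 for Myc regions and 4 each for H3K4me3 regions and blocks in Myc-on tumours against control liver; 2 for H3K4me3 regions and 1 for H3K27ac blocks in switched-off against Myc-on tumours; and 1 each for those same sets in switched-off tumours against control liver. With peaks within 1 kb merged it was 2 for Myc regions in both Myc contrasts, 2 for RNAPII in switched-off tumours against control liver and 2 for H3K4me3 in switched-off against Myc-on tumours. Of 82 site differences not called, 24 changed sign and 19 passed the threshold under at least 1 alternative. The 4 H3K4me3 block stretches called with wild-type controls alone include 2 with blocks in the wild-type livers only. Their call under that setting follows from how they were selected.

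With 1 library left out, the tile differences ran from 7.60 to 17.2 points for Myc in Myc-on tumours against control liver, from -21.3 to -13.0 for Myc in switched-off against Myc-on tumours, and from -28.1 to -18.8 for H3K4me3 in Myc-on tumours against control liver. The number of sites called ran from 1 to 2 for RNAPII regions in switched-off tumours against control liver, from 1 to 2 and from 0 to 1 for H3K4me3 regions in Myc-on tumours against control liver and in switched-off against Myc-on tumours, from 0 to 1 for H3K4me3 regions in switched-off tumours against control liver, and from 0 to 4 for H3K4me3 blocks in switched-off against Myc-on tumours. For H3K27ac blocks it ran from 0 to 1 in Myc-on tumours against control liver, 0 to 1 in switched-off against Myc-on tumours, and 0 to 3 in switched-off tumours against control liver.

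Correlations of same-numbered libraries' deviations ran from 0.165 to 0.375 for Myc in Myc-on tumours against control liver, and down to -0.305 elsewhere. Differently numbered libraries were not compared, so these values do not show a pairing. For both histone marks the list headers give each of the 11 libraries its own sample number. With the replicate block, 3 Myc regions were called in switched-off against Myc-on tumours, 3 RNAPII regions in switched-off tumours against control liver and 2 H3K4me3 regions in switched-off against Myc-on tumours, and the Myc tile difference of 6.66 points passed. For Myc, numbers 5 and 6 exist only among Myc-on tumours, so the blocked Myc differences leave these 2 tumours out.

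Coverage of the Apoa1 interval, 100% for H3K4me3 and H3K27ac in every group, was lower under 2 alternatives. With the stricter score it averaged 25% in Myc-on tumours and 50% in control livers for H3K4me3, and 75% in control livers for H3K27ac. Each library was then at 0% or 100%, and 1 score limit served all libraries of an antibody. With blocks alone the Apoa1 coverage averaged 99.9%, 98.9% and 96.6% for H3K4me3, and 91.6%, 87.4% and 83.7% for H3K27ac, in switched-off tumours, Myc-on tumours and control livers.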
